A study of Mus musculus with 48 samples.

Results

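H3K27ac was mapped in wild-type (WT) cells of 3 sorted populations: skeletal stem cells (SSC), the pBCSP, which are pre-bone, cartilage and stromal progenitors, and the BCSP, their bone, cartilage and stromal counterparts. All were taken from the limbs of C57BL/6 mice at postnatal day 3. The 6 WT H3K27ac peak lists, 2 per population, were chosen by their labels from the 48 samples of the series. All WT mice were Ptip f/f, so the floxed allele was also carried by the animals without Cre, and the KO mice used for a few comparisons were Ptip f/f;Col2a1-cre. Col2a1 regulatory sequence drives Cre in cells of the cartilage lineage, so recombination need not reach every sorted cell. Libraries with no replicate number form the first set and those numbered rep2 form the second set. Files of the first set have a broad-peak layout and files of the second a narrow-peak one, so populations were compared within a set, and a gene was followed from the first set to the second. The sources used here do not say how many animals went into a library.

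H3K27ac is the acetylation of lysine 27 on histone H3, placed by p300 and CBP at active promoters and enhancers and removed by histone deacetylases. H3K4me3 marks promoters and H3K4me1 marks enhancers and the flanks of promoters. PTIP, encoded by Paxip1, belongs to the KMT2C and KMT2D complexes that place H3K4me1 and to DNA repair complexes. In the limb skeleton the stem cell gives rise to progenitors that can form bone, cartilage and stroma.

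A gene was called marked in a list when at least 1 peak overlapped, by 1 base or more, the 4 kb around one of its start sites (2 kb to each side). For the 7589 of 34614 genes with no listed start site, Sox9 among them, both ends of the gene were used in its place. The mark sat alone in pBCSP in both sets at 121 genes, alone in BCSP in both sets at 15 genes and alone in SSC in both sets at 0 genes. Marked in all 6 lists were 3 genes. The start-site sequences of a few of these genes are shown because the peaks lay within 2 kb of these starts. Each stretch is the part of the 250 bases before the start site nearest the peak that lies outside every annotated gene, from RefSeq on build GRCm38, written 5′ to 3′ on the strand of the gene. Capitals mark matches, on either strand, to TATAAA (the TATA box), to CCAAT (the CAAT box), to GGGCGG (the GC box), to TGACGT (the core of the CRE), to TGANTCA (the AP-1 site), to TGTGGT (the RUNX core) or to ACAAAG (a SOX and TCF core). The first 3 named genes of each population were to be shown, but Sec16b, Hdac4, Dnajc11 and Nufip2 have no such stretch of 50 bases. Utp3, Bod1 and Tollip, the next named genes with 150 bases, were taken after their values were seen, as were Cnmd and Paxip1.
A930018O16Rik and Tent4a, which start on opposite strands, marked in pBCSP alone in both sets, chr13:69534237-69534314, plus strand: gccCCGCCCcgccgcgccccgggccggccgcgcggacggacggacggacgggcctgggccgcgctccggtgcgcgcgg
Utp3, marked in pBCSP alone in both sets, chr5:88554212-88554461, plus strand: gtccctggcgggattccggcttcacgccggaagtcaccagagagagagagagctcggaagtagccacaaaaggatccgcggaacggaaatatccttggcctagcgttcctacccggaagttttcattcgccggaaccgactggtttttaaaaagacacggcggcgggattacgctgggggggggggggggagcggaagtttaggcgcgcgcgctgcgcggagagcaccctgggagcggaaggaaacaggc
Bod1, marked in BCSP alone in both sets, chr11:31671863-31672112, minus strand: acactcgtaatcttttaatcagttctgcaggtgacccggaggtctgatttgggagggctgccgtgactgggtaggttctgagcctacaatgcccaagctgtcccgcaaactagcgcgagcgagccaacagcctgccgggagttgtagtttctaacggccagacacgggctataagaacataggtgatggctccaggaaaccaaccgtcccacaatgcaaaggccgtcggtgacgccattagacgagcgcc
Tollip, marked in BCSP alone in both sets, chr7:141902462-141902711, minus strand: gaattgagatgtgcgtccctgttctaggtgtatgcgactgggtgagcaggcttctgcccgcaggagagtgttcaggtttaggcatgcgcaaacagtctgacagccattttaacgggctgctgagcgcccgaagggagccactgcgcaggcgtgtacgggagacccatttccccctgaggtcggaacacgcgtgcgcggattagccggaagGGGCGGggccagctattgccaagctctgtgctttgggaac
Rabl3 and Gtf2e1, which start on opposite strands, marked in all 6 lists, chr16:37539790-37539857, plus strand: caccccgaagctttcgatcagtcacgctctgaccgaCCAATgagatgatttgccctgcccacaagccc
Hjurp, marked in all 6 lists, chr1:88277645-88277829, minus strand: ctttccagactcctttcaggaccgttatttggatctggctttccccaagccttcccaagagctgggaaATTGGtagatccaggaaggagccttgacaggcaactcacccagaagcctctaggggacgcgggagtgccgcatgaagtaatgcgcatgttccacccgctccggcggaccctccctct
Cnmd, a chondrocyte gene marked in SSC alone in the first set, chr14:79662195-79662433, minus strand: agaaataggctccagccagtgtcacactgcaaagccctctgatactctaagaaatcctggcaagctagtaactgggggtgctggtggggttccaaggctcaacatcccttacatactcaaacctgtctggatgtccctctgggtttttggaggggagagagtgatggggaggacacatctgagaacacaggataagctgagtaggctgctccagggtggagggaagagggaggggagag
Paxip1, the targeted gene, under the strongest peak of the first SSC list, chr5:27791673-27791800, minus strand: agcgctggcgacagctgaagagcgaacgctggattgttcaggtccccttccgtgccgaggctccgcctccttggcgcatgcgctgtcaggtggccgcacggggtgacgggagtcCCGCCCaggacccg
The stretches between Rabl3 and Gtf2e1 and before Hjurp hold a CCAAT match, and those of A930018O16Rik and Tent4a, Tollip and Paxip1 hold a GC box. No searched letters occur in the stretches of Utp3, Bod1 and Cnmd.

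The lists differed in length within each set. In the first set, 1828 peaks were listed in SSC, 6879 in pBCSP and 6236 in BCSP, and in the second set 137, 3811 and 785. The marked genes numbered 1403 in SSC (4.05% of 34614), 3974 in pBCSP (11.5%) and 4518 in BCSP (13.1%) in the first set. In the second set they numbered 61 in SSC (0.176%), 1742 in pBCSP (5.03%) and 197 in BCSP (0.569%). BCSP thus had more marked genes than pBCSP in the first set and fewer in the second. Most first-set peaks overlapped an H3K4me3 peak of their own population, 89.2% in SSC, 65.6% in pBCSP and 79.5% in BCSP, against 70.8%, 55.7% and 35.0% in the second set. The read depth behind each list was not given in the files, and the lowest -log10 q in a list was 1.02 to 1.09 in the first set and 2.06 to 3.15 in the second. The part of depth and of the lowest q in the counts was not tested.

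**Figure D1:**
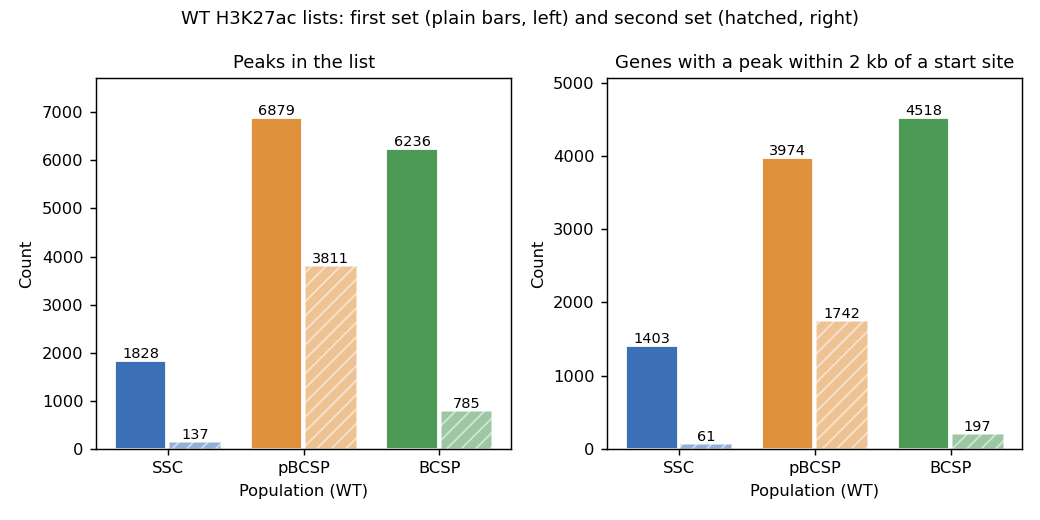
Peaks (left panel) and genes with a peak within 2 kb of a start site, or of a gene end where none is listed (right panel), in the 6 WT H3K27ac lists, as counts on linear axes, with 1 bar per library and no error. The second set (hatched) holds 137, 3811 and 785 peaks in SSC, pBCSP and BCSP, and pBCSP has the most marked genes only in that set.

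RNA was read in 2 WT libraries per population (15495915 to 22670899 counts each) and was tested over 16264 genes, each population against the mean of the other 2, with edgeR's quasi-likelihood test and Benjamini-Hochberg adjustment over all genes. With the 6 KO libraries added to the fit, 2 genes were called higher in BCSP and 0 in any other direction or population, so nearly all RNA calls given here, single genes included, rest on the spread of the WT libraries alone. Of the 8 surface marker genes of the sorting scheme, 6 passed the filter on low counts, and 3 of them were called. Cd200, a surface glycoprotein that marks SSC in this scheme, had 293 and 200 CPM (counts scaled to library size) in the SSC libraries, against 28.1 and 26.1 in the pBCSP libraries and 137 and 77.8 in the BCSP ones, and was higher in SSC (log2 difference 2.19 ± 0.25, SE; adjusted p = 0.00466, edgeR). Eng, which encodes the endoglin (CD105) surface receptor of BCSP, had 174 and 131 CPM in BCSP, against 28.2 and 25.4 for SSC and 29.7 and 34.7 for pBCSP, and was higher in BCSP (log2 difference 2.38 ± 0.18, SE; adjusted p = 0.000561, edgeR). Tek, an endothelial receptor used in the sort, had 10.99 and 10.4 CPM in BCSP, against 0.467 and 0.545 for SSC and 4.46 and 5.70 for pBCSP. It was higher in BCSP (log2 difference 2.73 ± 0.29, SE; adjusted p = 0.00224, edgeR) and lower in SSC (log2 difference -3.85 ± 0.39, SE; adjusted p = 0.00302, edgeR). Of the 8 sorting genes Eng alone carried H3K27ac, in the first BCSP list (3.92-fold).

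Of the marker lists of other cell types, 0 of 12 leukocyte, 0 of 9 erythroid, 0 of 12 endothelial and 0 of 8 adipocyte genes carried H3K27ac in any of the 6 lists. Marked genes of other lists included Tnnt3 and Tnni2 of 12 skeletal muscle genes, Oscar of 8 osteoclast genes and Cspg4 of 9 pericyte genes. Of 8 Schwann cell genes 1 was marked, in pBCSP and BCSP in the first set and not in SSC. Oscar was marked in pBCSP in both sets and in BCSP in the first. The skeletal lists also held genes without the mark. Unmarked in all 6 were 11 of 16 osteoblast, 9 of 10 hypertrophic chondrocyte, 21 of 30 limb mesenchyme and 9 of 20 chondrocyte genes. In RNA, the Schwann cell list stood out in SSC, where its summed level was 1450 to 2042 CPM, against 81.5 to 136 for pBCSP and 179 to 705 for BCSP. It was higher in SSC for 4 of 8 genes, where 0.935% of all tested genes were called higher. The skeletal muscle list summed to 404 to 603 CPM in BCSP, against 35.4 to 76.3 for SSC and 86.3 to 97.1 for pBCSP, and was higher in BCSP for 3 of 9 genes, where 3.69% of all were. The adipocyte list summed to 273 to 312 CPM in BCSP, against 30.1 to 40.1 for SSC and 80.0 to 120 for pBCSP, with 1 of 6 genes higher in BCSP. The osteoclast list had 1 of 3 higher there.

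The summed level of the leukocyte list was 8.05 to 11.8 CPM for SSC, 36.3 to 44.0 for pBCSP and 13.8 to 16.9 for BCSP, and that of the endothelial list 35.9 to 66.3, 104 to 139 and 61.3 to 74.6 CPM. RNA was higher in pBCSP for 2 of the 9 leukocyte genes tested and 3 of the 12 endothelial ones, where 0.0799% of all were, and 4 of the 12 endothelial genes were lower in SSC, where 1.67% of all were. The defining leukocyte gene Ptprc did not pass the filter on low counts. The summed erythroid level was 49.2 to 101 CPM for SSC, 39.5 to 266 for pBCSP and 24.5 to 76.6 for BCSP. The part of such cells in the results of each population was not tested. In sorted cells measured in bulk, fewer cells of a type and less RNA per cell cannot be told apart.

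At 121 genes H3K27ac was found in pBCSP and in neither other population, in both sets (0.35% of all genes). In the first set 1039 of the 3974 genes marked in pBCSP (26.1%) were alone, and in the second 1643 of 1742 (94.3%). The second SSC and BCSP lists marked only 61 and 197 genes, so absence from them removed few genes. A start site is listed for 93 of the 121. The 121 include 93 protein-coding genes and 28 lncRNA genes and lay under 105 peaks of the first set and 111 of the second, since neighbours that share a start region share a peak. At 76 of them a peak of the second set overlapped a peak of the first. For the highest peak near each gene, the median fold enrichment was 3.95 (3.48 to 7.27) in the first set and 4.88 (3.59 to 11.9) in the second, as the authors' peak caller gave it. Genes that pBCSP shared with another population had medians of 4.31 in the first set (2935 genes) and 5.51 in the second (99 genes).

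Among the 10 genes ranked by the lower of their 2 within-list percentiles, Sec16b, which organises the sites where cargo leaves the endoplasmic reticulum, had 5.17-fold and 7.33-fold enrichment in the first and second pBCSP lists. Tent4a, a non-canonical poly(A) polymerase, and its neighbour A930018O16Rik shared a peak in each set (4.60-fold and 7.35-fold). Gng11, a G protein gamma subunit, had 4.43-fold and 6.28-fold, and Otud6b, a deubiquitinase, 4.36-fold and 6.41-fold. Utp3, a factor of ribosomal RNA processing, had 4.96-fold and 5.51-fold. Mettl21a, a lysine methyltransferase, Slc14a2, a urea transporter, Znfx1, an RNA helicase, and Csrnp1, a nuclear protein, had 4.30 to 4.52-fold in the first set and 5.51-fold in the second. Gng11, Otud6b and Slc14a2 have no listed start site, so their peaks may lie at either end of the gene. All 10 had their higher value in the second set, whose lists also had the higher medians. The median peak width was 202 bases in the second pBCSP list, against 521 in the first. Folds repeated in the second list: Utp3, Mettl21a, Slc14a2, Znfx1 and Csrnp1 all had 5.51-fold, at the same percentile (72.4). That percentile was the lower one for Utp3, Mettl21a, Slc14a2 and Znfx1, so these were tied and their order has no meaning.

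**Figure D2:**
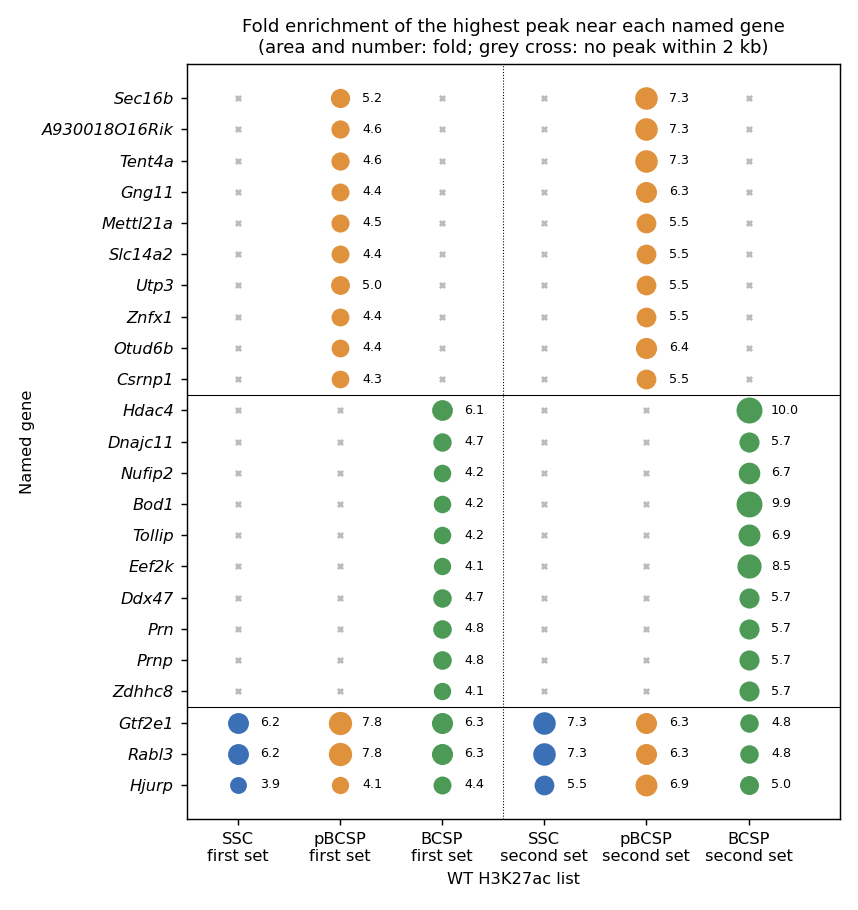
Highest H3K27ac fold enrichment within 2 kb of a start site for the first 10 genes marked in pBCSP alone in both sets, the first 10 marked in BCSP alone in both sets and the 3 marked in all 6 lists (rows), in each WT list (columns). Gng11, Slc14a2, Otud6b and Dnajc11 have no listed start site, and both gene ends were used for them. Circle area and the number beside it give the fold, and a cross means no peak: the single-population genes have circles in 1 population only, by the way they were chosen.

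Genes of the lists written from general knowledge gave 3 of the 121. Ltbp1, which anchors latent TGF-beta in the matrix, had 3.69-fold and 7.18-fold enrichment in the first and second pBCSP lists. Pkm, the pyruvate kinase of glycolysis, had 3.95-fold and 5.38-fold, and Eif1, which guides start codon choice, 5.31-fold and 4.49-fold. A pair of chromatin enzymes, chosen after their values were seen, were also among the 121: Ezh2, the methyltransferase that puts methyl groups on the residue acetylated here, at 3.94-fold and 5.38-fold, and Hdac3, a deacetylase, at 3.91-fold and 4.59-fold.

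The RNA of these genes was tested apart from the mark. Of the 121, 98 were tested, and none was higher or lower in pBCSP past an adjusted p of 0.05 by edgeR, where 0.0799% of all tested genes were called higher and 0.307% lower. In simulated counts this fit called 20 of 50 genes changed 2-fold in pBCSP (40%), so differences of that size can go uncalled. Unadjusted p was under 0.05 for 9 of the 98 (9.18%), against 10.98% of all tested genes, and DESeq2 called 1 higher and 0 lower, against 129 and 411 over all genes. The RNA difference was above 0 for 67 of the 98 (68.4%), with a median of 0.13 log2, against 58.9% and 0.06 for all 5167 tested genes marked in any list and 52.0% and 0.02 for all tested genes. The closest to the threshold was Fxyd5, a regulator of the sodium pump, with 421 and 371 CPM in pBCSP, against 273 and 304 for SSC and 193 and 157 for BCSP. Both pBCSP libraries were above the other 4, and the log2 difference was 0.82 ± 0.16 (SE; adjusted p = 0.0917, edgeR). DESeq2 called it higher, as given in the closing section, and by edgeR it was lower in BCSP (log2 difference -0.95 ± 0.17, SE; adjusted p = 0.0197). Gng11 RNA was instead higher in BCSP, with 49.7 and 48.6 CPM there, against 25.2 and 21.7 for SSC and 32.5 and 30.2 for pBCSP (log2 difference 0.86 ± 0.18, SE; adjusted p = 0.0356, edgeR). Sec16b had 50.9 and 76.7 CPM in pBCSP, against 52.3 and 70.0 for SSC and 37.2 and 49.8 for BCSP. Pkm had 1165 and 919 CPM in pBCSP, against 1034 and 785 for SSC and 659 and 749 for BCSP. For both, pBCSP overlapped SSC and did not pass the test (adjusted p = 0.758 and 0.486, edgeR). Csrnp1 had 582 and 521 CPM in pBCSP, against 630 and 438 for SSC and 483 and 567 for BCSP, and the groups overlapped.

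**Figure D3:**
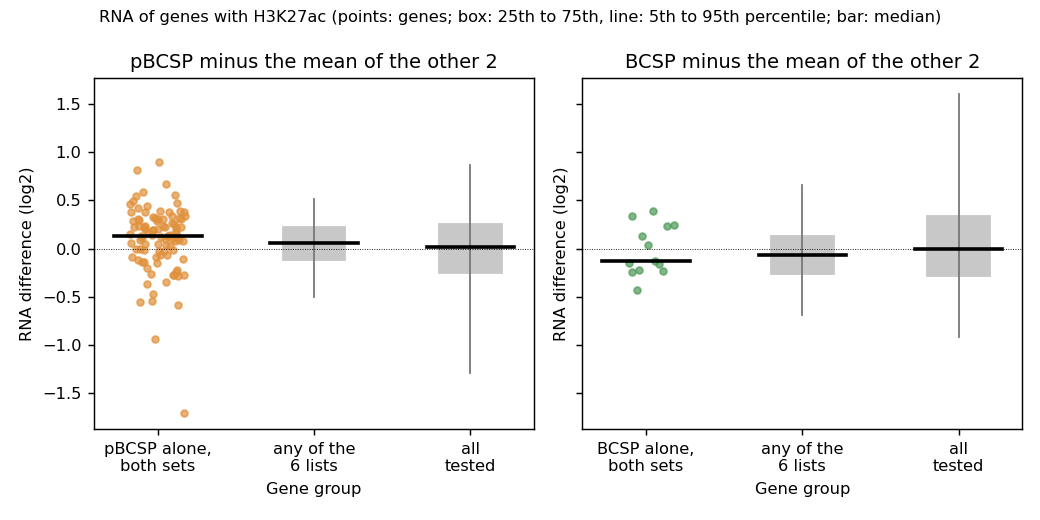
RNA difference between a population and the mean of the other 2 (log2, y axis), for the genes marked in that population alone in both sets (points, each a gene tested), for all tested genes marked in any of the 6 lists and for all genes tested (boxes). The members' median was 0.13 in pBCSP and -0.13 in BCSP, and the members of both populations spread around 0.

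Other marks at the same genes, which the choice did not use, were found in all 3 populations at most of them. H3K4me3 lay within 2 kb of a start site, or of a gene end where none is listed, in all 3 populations at 117 of the 121 (96.7%). It did so at 50.7% of all genes. Other genes marked in pBCSP were alike. The share was 93.1% where pBCSP was alone in the first set only, 95.3% where it was alone in the second set only and 99.0% where it was marked in both sets, shared or not. Single lists of H3K4me3 covered 52.9%, 51.6% and 52.9% of all genes in SSC, pBCSP and BCSP. H3K4me1 was present in SSC at 110, in pBCSP at 121 and in BCSP at 120, where 48.4%, 62.6% and 60.5% of all genes carried it. Here too other genes marked in pBCSP were alike. The shares were 91.1%, 99.0% and 97.9% with pBCSP alone in the first set only. With it alone in the second set only they were 93.2%, 98.9% and 98.2%. In KO cells, H3K27ac was found at 53 of them in pBCSP and at 55 in BCSP in the first set, and at 11 in pBCSP and at 63 in BCSP in the second set. In SSC KO it was found at 14 and 8. The KO lists marked, of all genes, 5.1%, 8.7% and 10.7% in SSC, pBCSP and BCSP in the first set and 1.47%, 1.59% and 11.9% in the second. The first KO pBCSP list marked 43.8% of the 121. It marked 22.9% of genes with pBCSP alone in the first set only, 52.9% of those with it alone in the second set only and 71.1% of those marked in pBCSP in both sets. The first KO BCSP list marked 45.5% of the 121, and 28.4%, 59.2% and 73.5% of these 3 groups. For the second KO BCSP list the shares were 52.1%, and 33.6%, 67.3% and 81.4%. No member of the 121 was marked in KO pBCSP alone in both sets. Marked in KO pBCSP alone were 22 in the first set and 2 in the second, where the KO pBCSP list held only 11 members. The share of all genes marked in KO pBCSP alone in both sets was not counted.

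BCSP alone was marked in both sets at 15 genes (0.0433% of all genes), 14 of them protein-coding. Of all genes marked in BCSP, 1504 of 4518 (33.3%) were alone in the first set and 129 of 197 (65.5%) in the second. Hdac4, a deacetylase that restrains chondrocyte hypertrophy, had the highest values of both sets, at 6.11-fold and 9.95-fold. Bod1, a kinetochore protein, had 4.21-fold and 9.91-fold, and Eef2k, the kinase of elongation factor 2, 4.14-fold and 8.55-fold. Tollip, an endosomal adaptor, had 4.20-fold and 6.91-fold, and Nufip2, an RNA-binding protein, 4.24-fold and 6.67-fold. Dnajc11, a mitochondrial chaperone, Ddx47, an RNA helicase, Prn and Prnp, which share the prion protein start region, and Zdhhc8, a palmitoyl transferase, had 4.14 to 4.80-fold in the first set and 5.70 to 5.72-fold in the second. Ddx47, Prn, Prnp and Zdhhc8 had the same value in the second BCSP list (5.70-fold) and were tied in rank. Dnajc11 has no listed start site, so its peaks may lie at either end of the gene. The other 5 were Setd2, which methylates lysine 36 of histone H3, Tpcn2, an endolysosomal channel, Cdca5, a cohesin regulator, Zfpl1 and the lncRNA gene Gm36449.

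All 15 carried H3K4me3 and H3K4me1 in all 3 populations. H3K4me3 was in all 3 at 97.5% of genes with BCSP alone in the first set only, 82.5% with it alone in the second set only and 98.4% of those marked in BCSP in both sets. In KO BCSP, H3K27ac was found at 9 of the 15 in the first set and 11 in the second, and at 6 in both, of which 4 were marked in KO BCSP alone in both sets. In the same 3 groups, the KO BCSP lists marked 35.5%, 27.2% and 68.0% in the first set and 40.5%, 53.5% and 87.2% in the second. Over all genes they marked 10.7% and 11.9%, and the share marked in KO BCSP alone in both sets was not counted. Hdac4 was not marked in either KO BCSP list and had 5.68-fold enrichment in the first KO SSC list and 8.72-fold in the second KO pBCSP list. Of 13 members tested for RNA, none was higher or lower in BCSP by edgeR, where 3.69% and 0.646% of all tested genes were called. Unadjusted p was under 0.05 for 1 of the 13 (7.69%), against 15.9% of all tested genes, and DESeq2 called 0. Prnp had 822 and 880 CPM in BCSP, against 1140 and 1242 for SSC and 1118 and 1082 for pBCSP. Both BCSP libraries were below the other 4, and the log2 difference was -0.43 ± 0.14 (SE; adjusted p = 0.154, edgeR). Hdac4 had 47.1 and 34.9 CPM in BCSP, against 39.4 and 53.0 for SSC and 53.2 and 45.9 for pBCSP, and the groups overlapped. Of the 1287 tested genes marked in BCSP alone in the first set, with or without a repeat, 26 were higher in BCSP (2.02%) and 2 lower (0.155%).

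No gene was marked in SSC alone in both sets. SSC alone held 72 genes in the first set and 27 in the second, and 0 of the 72 were marked in the second SSC list. Of the 1331 genes marked in SSC and another population in the first set, 35 (2.63%) were in that list. It marked only 61 genes (0.176% of all genes), so few of any group could be in it. Of the 72, 61 were tested for RNA and 0 were called in SSC by edgeR, where 0.935% of all tested genes were higher and 1.67% lower. Unadjusted p was under 0.05 for 8 of the 61 (13.1%), against 12.8% of all tested genes. The mark was in SSC in both sets at 35 genes (0.101% of all genes), in pBCSP at 1138 (3.29%) and in BCSP at 125 (0.361%), shared with other populations or not. Of the 35, 32 were marked in all 3 populations in the first set. Ranked in the same way, after their values were seen, they began with Pck2, a mitochondrial gluconeogenic enzyme (5.71-fold and 8.24-fold), Zfp143, a zinc finger transcription factor (5.37-fold and 8.40-fold), and Kat5, a histone acetyltransferase (5.39-fold and 7.47-fold).

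The share of genes marked in pBCSP alone in the second set was given by first-set class, as a description without a test. Of the 1039 genes marked in pBCSP alone in the first set, 121 (11.6%) were marked in pBCSP alone in the second. Of the 1504 marked in BCSP alone in the first set, 199 (13.2%) were marked in pBCSP alone in the second, and of the 1082 marked in all 3 populations 476 (44.0%) were. Among the 28900 genes unmarked in the first set, 345 (1.19%) were. For BCSP, 15 of 1504 BCSP-alone genes (0.997%) were marked in BCSP alone in the second set, against 10 of 1039 pBCSP-alone genes (0.962%) 25 of the 1082 marked in all 3 (2.31%) and 3 of the 72 SSC-alone genes (4.17%). The second pBCSP list shared 65.3% of its genes with the first pBCSP list and 71.1% with the first BCSP list. Its peaks overlapped those lists at 37.2% and 37.4%.

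**Figure D4:**
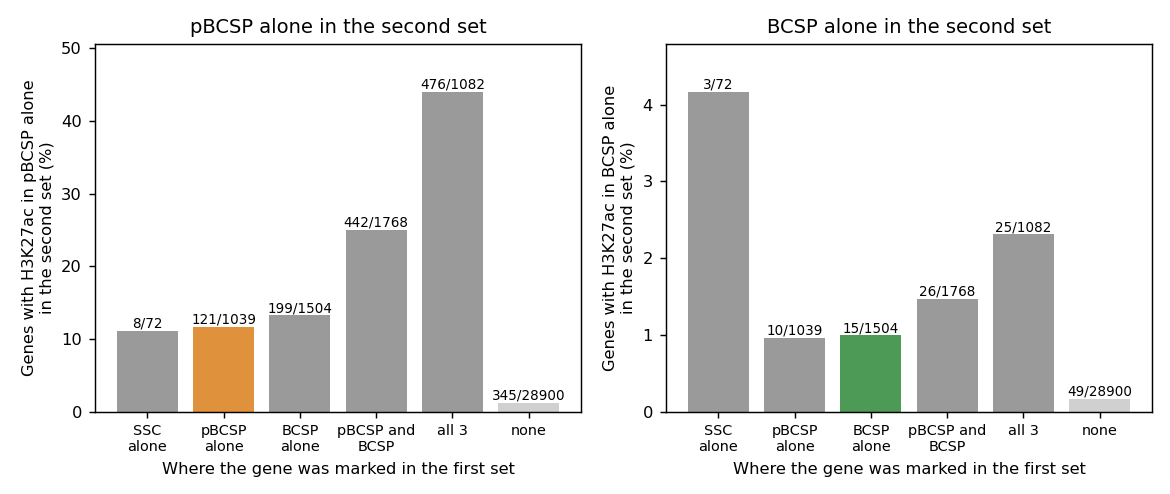
Share of genes marked in pBCSP alone (left panel) or BCSP alone (right panel) in the second set, in percent, by where the gene was marked in the first set; numbers above the bars are genes over genes, and the 2 panels have different scales. In the left panel the bar of genes marked in pBCSP alone in the first set stands at 11.6% and that of genes marked in all 3 populations at 44.0%.

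When each list of a set was reduced to the length of its shortest list by -log10 p (1828 and 137 peaks), 1 gene was marked in pBCSP alone in both sets (Nfix), 3 in BCSP alone (Gm13523, Hdac4 and Ube2s) and 2 in SSC alone (Ik and Ndufa2). Of these 6, Hdac4 is the 1 gene also among the 121 and the 15. With peaks of a -log10 q of at least 5 alone, 5 genes were marked in pBCSP alone in both sets, none of them among the 121, and 5 in BCSP alone, 1 of them among the 15.

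The 3 genes marked in all 6 lists were Gtf2e1, a subunit of the basal transcription factor TFIIE, Rabl3, a small GTPase-like protein whose start region it shares, and Hjurp, which loads the centromeric histone CENP-A. Gtf2e1 and Rabl3 lay under the same peak in each list, with 6.21-fold, 7.84-fold and 6.33-fold enrichment in SSC, pBCSP and BCSP in the first set and 7.33-fold, 6.28-fold and 4.77-fold in the second. Hjurp had 3.87-fold, 4.08-fold and 4.45-fold in the first set and 5.50-fold, 6.86-fold and 5.04-fold in the second.

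Few peaks away from start sites were found in 1 population in both sets. In the first set 220 pBCSP peaks (3.2% of 6879) overlapped a second-set pBCSP peak and no peak of another population in its own set, as did 23 BCSP peaks (0.369%) and 0 SSC peaks. Of the 220, 47 lay outside all start-site windows and outside H3K4me3 peaks of the 3 populations, and 46 of these overlapped a pBCSP H3K4me1 peak. Among pBCSP peaks found in both sets, shared or not, 74 lay there, and 71 of these overlapped one. Of the 2195 first-set pBCSP peaks outside the windows and outside pBCSP H3K4me3 peaks, 80.4% did. A peak in Sox5, a partner of Sox9 in cartilage transcription, was among the 47 (chr6:143843581-143844348, 4.09-fold and 4.59-fold), within the annotated gene and marked in no KO list. Sox5 RNA was 208 and 177 CPM in pBCSP, against 157 and 143 for SSC and 95.6 and 82.4 for BCSP (log2 difference 0.74 ± 0.16, SE; adjusted p = 0.122, edgeR). Both pBCSP libraries were above the other 4, and Sox5 was lower in BCSP than in the mean of the others (log2 difference -0.93 ± 0.17, SE; adjusted p = 0.0232, edgeR). Tns1, a focal adhesion protein, held 2 of the 47 peaks (3.93-fold and 5.51-fold; 3.64-fold and 7.35-fold). Sox5 and Tns1 were chosen after their values were seen. The BCSP peaks of this kind numbered 3, with the highest in Msl2, a subunit of a histone acetylation complex (6.19-fold and 7.52-fold). In KO cells, 18 and 5 of the 47 overlapped a pBCSP peak of the first and second set, and 9 and 18 a BCSP peak. The share of other peaks away from start sites that did so was not counted.

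Chondrocyte genes were the list with the largest share in the first SSC list among the skeletal lists. In the first set 8 of the 20 carried the mark in SSC, 7 in pBCSP and 6 in BCSP, where 4.05%, 11.5% and 13.1% of all genes did. Sox9 and Sox6, transcription factors of cartilage, had 4.03-fold and 4.95-fold in SSC and 4.57-fold and 3.64-fold in pBCSP, and Sox6 had 4.26-fold in BCSP. Acan, the large cartilage proteoglycan, had 3.95-fold, 4.24-fold and 4.13-fold in SSC, pBCSP and BCSP. Col11a1, a cartilage collagen chain (4.37-fold), and Cnmd, the cartilage glycoprotein chondromodulin (4.64-fold), were marked in SSC alone in the first set and in no list of the second. In the second set Hapln1, which links aggrecan to hyaluronan, was the only one of the 20 marked, in pBCSP (6.41-fold). In that set 0.176%, 5.03% and 0.569% of all genes were marked in SSC, pBCSP and BCSP. The RNA difference of SSC from the mean of the others was above 0 for all 20, with a median of 0.70 log2, and 0 passed the adjusted threshold by edgeR (14 at an unadjusted p under 0.05, against 12.8% of all tested genes), where 0.935% of all tested genes were called higher and 1.67% lower. The chondrocyte list summed to 123198 and 72845 CPM in the SSC libraries, against 71751 and 59913 for pBCSP and 64343 and 43986 for BCSP. By this sum the second SSC library lay close to the first pBCSP library. Related lists did hold calls. Of 10 hypertrophic chondrocyte genes, 5 were higher in SSC, 4 lower in pBCSP and 3 higher in BCSP. Of 16 osteoblast genes, 5 were higher and 2 lower in SSC, 4 lower in pBCSP and 4 higher in BCSP. These lists share Alpl, Ibsp and Spp1. Of all tested genes, 0.307% were lower in pBCSP and 3.69% higher in BCSP.

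Genes of limb mesenchyme and of the matrix outside cartilage had their highest count in BCSP in the first set, as did all genes (4.05%, 11.5% and 13.1% in SSC, pBCSP and BCSP). Of 30 mesenchyme genes 0 were marked in SSC, 3 in pBCSP and 7 in BCSP, and of 22 matrix genes 1, 5 and 9. In the second set pBCSP had the highest count, with 0, 2 and 1 mesenchyme genes and 0, 3 and 0 matrix genes. It also had the highest count over all genes in that set (0.176%, 5.03% and 0.569% in SSC, pBCSP and BCSP). Postn, which encodes the matrix protein periostin, carried the mark in BCSP alone in the first set (5.36-fold) and in pBCSP alone in the second (7.35-fold). Its RNA was 1903 and 1587 CPM in BCSP, against 376 and 390 for SSC and 935 and 1038 for pBCSP, and was higher in BCSP (log2 difference 1.51 ± 0.14, SE; adjusted p = 0.0013, edgeR). Lum, a small leucine-rich proteoglycan, and Col5a1, a fibrillar collagen chain, were likewise marked in BCSP alone in the first set (4.68-fold and 5.45-fold) and in pBCSP alone in the second (4.49-fold and 4.59-fold). Col5a1 RNA was higher in BCSP (log2 difference 1.02 ± 0.17, SE; adjusted p = 0.0165, edgeR). Pdgfra, a receptor of mesenchymal cells, was marked in the second BCSP list only (5.72-fold), and its RNA was higher in BCSP (log2 difference 1.40 ± 0.24, SE; adjusted p = 0.0177, edgeR). Over the matrix list, RNA rose in BCSP for 10 of 22 genes and fell for 0, and over the mesenchyme list for 7 of 30 and 0, by the same test, where 3.69% of all tested genes rose and 0.646% fell. The skeletal muscle, adipocyte and osteoclast markers given above were also higher in BCSP, and their part in these counts was not tested.

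**Figure D5:**
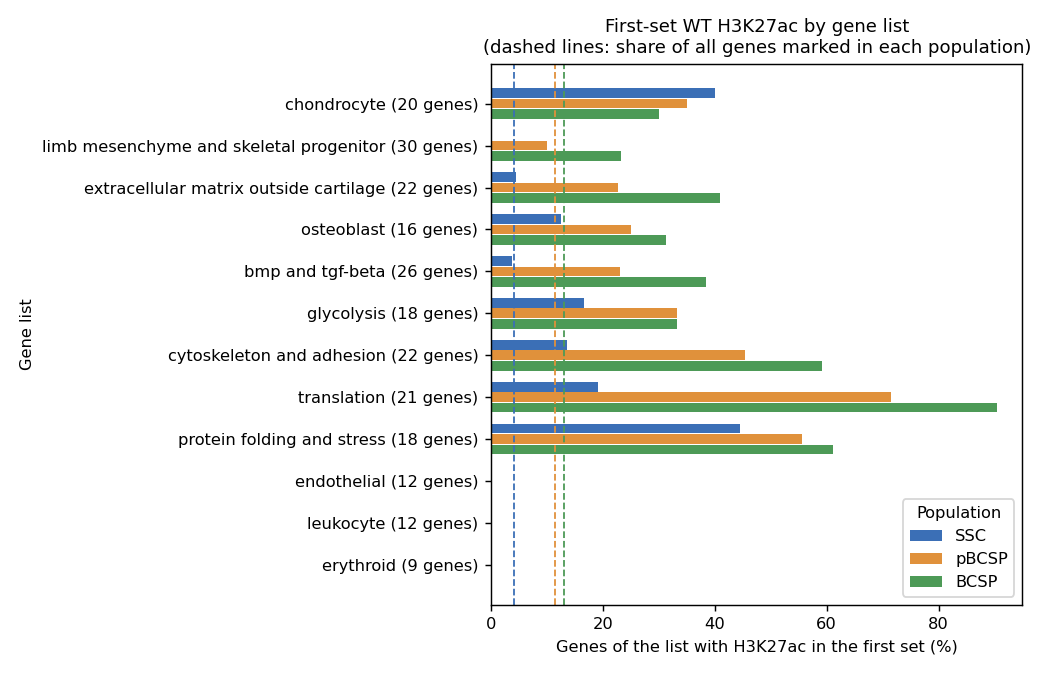
Share of the genes of 12 lists that carried H3K27ac in the first set (x axis, percent), for SSC, pBCSP and BCSP, with the share of all genes marked in each as dashed lines. Chondrocyte genes have 40.0%, 35.0% and 30.0%, matrix genes outside cartilage 4.55%, 22.7% and 40.9%, and the endothelial, leukocyte and erythroid lists 0%.

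In further lists the count grew in the order SSC, pBCSP, BCSP in the first set, as over all genes (4.05%, 11.5% and 13.1%). These included cytoskeleton and adhesion (3, 10 and 13 of 22), chromatin (2, 6 and 10 of 19) and osteoblast genes (2, 4 and 5 of 16). The Wnt and hedgehog lists, of 23 and 11 genes, each had 0, 1 and 2. Of 21 translation genes 4, 15 and 19 were marked in SSC, pBCSP and BCSP in the first set, and 1, 7 and 0 in the second. Of 18 protein folding and stress genes 8, 10 and 11 (44.4%, 55.6% and 61.1%) were marked in the first set and 0, 6 and 2 in the second, and the 2 in BCSP were Xbp1, a factor of the unfolded protein response, and Pdia3, a protein disulfide isomerase, both also marked in pBCSP in that set. Of 26 BMP and TGF-beta genes 1, 6 and 10 were marked in the first set and 0, 3 and 0 in the second. Of 13 Notch genes 0 were marked in the first set and 2 in pBCSP in the second. Over all genes, the second-set shares were 0.176%, 5.03% and 0.569% in SSC, pBCSP and BCSP. Cspg4, the NG2 proteoglycan of pericytes, was marked in all 3 first-set lists and in pBCSP and BCSP of the second.

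The strongest peak of the first SSC list lay on the start region of Paxip1 (chr5:27791419-27792591), at 53.6-fold enrichment, against a list median of 4.40 and 34.4-fold for the next peak. The gene had 7.56-fold enrichment in pBCSP and 5.21-fold in BCSP in the first set and 6.43-fold in pBCSP alone in the second. In KO cells it had 9.01-fold in the first SSC list and no peak in the other 5. Its RNA in WT was 13.9 and 11.99 CPM for SSC, 14.7 and 7.67 for pBCSP and 13.7 and 7.50 for BCSP, and it was not called in SSC (log2 difference 0.25 ± 0.35, SE; adjusted p = 0.916, edgeR). A peak over Camk2b on chromosome 11 was among the 2 strongest of each first-set list, at 34.4-fold, 9.47-fold and 15.5-fold in SSC, pBCSP and BCSP, and a peak over Gm34259 on chromosome 17 among the 2 strongest of each second-set list, at 20.2-fold, 41.3-fold and 18.1-fold.

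The promoters of the marked genes had a higher median GC content than the table of all promoters. The 250 bases before a start site had a median GC content of 57.6% at the 126 listed promoters of pBCSP-alone genes, of 60.4% at the 16 of BCSP-alone genes, of 59.6% at those of genes marked in any list and of 52.4% at all 32851 promoters. Both strands were searched. The GC box (GGGCGG) was in 47.6%, 62.5%, 55.4% and 32.7% of them. TATAAA was in 7.14%, 12.5%, 6.64% and 12.4%, and CCAAT in 26.2%, 37.5%, 33.2% and 33.8%. TGACGT was in 9.52%, 6.25%, 13.1% and 6.47%, TGANTCA in 6.35%, 12.5%, 4.97% and 6.75%, TGTGGT in 15.9%, 0%, 10.5% and 14.0%, and ACAAAG in 15.9%, 0%, 12.2% and 16.5%. These letters can overlap, and a match is not a bound site.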

How the data were processed

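Peak lists of histone ChIP on MNase-digested nuclei (per the labels) and RNA counts were used as deposited by the authors. Each peak line holds the authors' fold enrichment (a ratio), -log10 p, -log10 q and a score, per the file columns. The RNA files hold raw counts of reads per gene, as the authors deposited them. Per the submitters' processing notes, the tools were MACS2 2.2.6, Bowtie2 2.3.5.1, Trim Galore 0.6.6, SAMtools 1.9 and featureCounts 2.0.1, on build GRCm38. The sources used here do not give their settings.

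The universe was 34614 RefSeq genes on GRCm38.p6 (21887 coding, the rest lncRNA). Start sites came from the promoter table, and 7589 genes without one used both gene ends. Tried on genes with a listed site, 9.80% to 25.5% of the calls by both ends were absent by the start site. RNA was tested with edgeR 4.0.16 in R 4.3.3 (TMM, filterByExpr) on the 6 WT libraries, with 3 residual degrees of freedom, and 26016 of 34614 symbols had counts. Fits were tested on simulated data. Of 50 genes changed 2-fold and 50 changed 4-fold, the fit recovered 20 and 40 for pBCSP and 14 and 36 for BCSP. With 2 libraries per population and nothing that says they came from separate animals, p-values measure only the spread between these samples. Genes were named by the lower of the within-list percentiles of the highest fold (10 per population), apart from those said to be chosen later. Members and lists were chosen with earlier results of these data known. Input libraries were not used, and KO RNA entered 1 alternative only. Alternatives are in the closing section.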

Additional observations from a re-analysis of the deposited data

How the results depend on the processing

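With the window set to 1 kb or 5 kb, the peak centre in place of overlap, coding genes alone or genes with a listed start site alone (the last chosen after seeing the data), genes marked in pBCSP alone in both sets numbered 93 to 154 and in BCSP alone 14 to 22, and SSC alone stayed at 0. In the 5 kb window, 5 genes were marked in all 6 lists. Counting peaks over the gene body gave 211 genes in pBCSP alone, 36 in BCSP alone, 70, 1825 and 369 in SSC, pBCSP and BCSP in both sets, and 20 in all 6. With a -log10 q of at least 5, 5 were in pBCSP alone and 5 in BCSP alone, 4, 23 and 10 in SSC, pBCSP and BCSP in both sets, and 0 in all 6. With lists of equal length in a set, 2, 1 and 3 were in SSC, pBCSP and BCSP alone, 28 in pBCSP and 12 in BCSP in both sets, and 0 in all 6. Leaving out a list or a set gave 0 to 72 for SSC alone, 122 to 1643 for pBCSP alone, 15 to 1504 for BCSP alone, 61 to 1403, 1742 to 3974 and 197 to 4518 for SSC, pBCSP and BCSP, and 3 to 1082 for all. The cause was not tested.

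For RNA, whole-table calls (higher, lower) were 152 and 272 in SSC, 13 and 50 in pBCSP and 600 and 105 in BCSP. With all 12 libraries they were 0 and 0, 0 and 0, and 2 and 0. With the replicate block they were 772 and 835, 399 and 670, and 1460 and 739, with 5 higher and 1 lower among the pBCSP-alone genes and 1 lower among the BCSP-alone genes. Same-numbered libraries deviated together (correlations of 0.31, 0.348 and 0.376), but they share only a number, with 2 numbers and no label that ties them to animals, so this fit was not used beside the results. Without the filter they were 591 and 620, 234 and 570, and 1186 and 413, with 1 pBCSP-alone gene higher. DESeq2 gave 344 and 564, 129 and 411, and 953 and 325, with 1 pBCSP-alone gene (Fxyd5) higher. Leaving out a library gave 68 to 230 higher and 125 to 322 lower in SSC, 2 to 15 and 14 to 94 in pBCSP and 130 to 601 and 2 to 120 in BCSP, with 0 to 0 calls among the members.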
